A study of Homo sapiens with 4 samples.

Results

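A set of 6 genes carries out or reverses the attachment of the interferon-induced modifier ISG15 to proteins, and all 6 were measured among 18417 genes in endometrial cancer cells treated with siRNA against Efp. They come from a list made from their known roles, which was drawn up with earlier results of these data known. They are ISG15 itself, the activating enzyme UBA7, the conjugating enzyme UBE2L6, the ligase HERC5 with its paralog HERC6, and the ISG15 protease USP18. Efp, whose gene is TRIM25, is a RING finger ubiquitin ligase that can also act as an ISG15 ligase. The study silenced Efp in 2 human endometrial adenocarcinoma lines, Ishikawa, which has the estrogen receptor ERα, and HEC-1A, which lacks it. There was 1 Affymetrix array for each of Ishikawa siEfp, Ishikawa siControl, HEC-1A siEfp and HEC-1A siControl, 4 arrays in all, each from 150 ng of total RNA. Per the study's methods, the Ishikawa cells received the duplex siEfp #A or the non-targeting siControl for 48 h, while for the HEC-1A arrays neither the duplex nor the time is stated. Each line is a single established culture grown in serum, without interferon treatment named in the labels or methods.

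ISG15 is a small protein made of a pair of ubiquitin-like domains. It is joined to lysines of target proteins by a cascade that parallels ubiquitination, in which UBA7 activates it, UBE2L6 receives it and HERC5 transfers it to the target, and USP18 removes it again. All of these genes are induced by type I interferon through ISGF3, a transcription factor complex that contains IRF9 and binds interferon-stimulated response elements in their promoters. USP18 also binds the receptor subunit IFNAR2 and dampens interferon signaling, independently of its protease activity.

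The core of the response element can be read in the promoters of the modifier and of its main human ligase. These are shown because they were the 2 members with a match. Promoters (250 bases before and 50 after the start site, RefSeq, GRCh38.p14) were available for 4 of the 6 genes, ISG15, UBE2L6 with 2 start sites, HERC5 and HERC6. They were searched on both strands for the core GAAANNGAAA, which reads TTTCNNTTTC on the other strand. ISG15 had 2 overlapping matches in chr1:1013377-1013406 (+ strand), and HERC5 had 3, with 2 overlapping in chr4:88456987-88457016 and 1 in chr4:88457035-88457064 (+ strand). The matches are in capitals, all written 5′ to 3′ on the strand of the gene.
ISG15: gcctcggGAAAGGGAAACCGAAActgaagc
HERC5 upstream: attacagTTTCCTTTTCCTTTTCgattccg
HERC5 downstream: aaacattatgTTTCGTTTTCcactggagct
The capitals lie from -113 to -98 relative to the start site in ISG15, and from -125 to -110 and from -74 to -65 in HERC5. Of all 35116 RefSeq promoters searched, 3.57% held at least 1 match, 0.259% held 2 or more and 0.037% held 3 or more. No match stood in these windows of UBE2L6, HERC6 or TRIM25. A match is a description of the letters and not of binding.

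The values are RMA signals on the log2 scale, 1 probe set for each of the 6 genes, and each probe set has its own efficiency. A signal's place among the genes of its array is therefore given only to say how bright the probe set was, not to order the genes by expression. TRIM25 (probe set 8016847) was at 7.96 with siEfp and 9.42 with siControl in Ishikawa cells, and at 7.93 with siEfp and 9.50 with siControl in HEC-1A cells, in the direction of the labels. Medians over genes were 6.25 to 6.34 on the 4 arrays. The epithelial keratins KRT8 and KRT18 had signals of 10.85 to 12.44 on all arrays. Of 21 markers of stromal, endothelial and immune cells, 19 were below the median of genes on all 4 arrays, among them the pan-leukocyte gene PTPRC at 2.90 to 3.17. CDH1, the epithelial cadherin, was at 9.62 and 10.22 in Ishikawa cells but at 3.74 and 4.07 in HEC-1A cells (siEfp and siControl in each line). ESR1, the gene for ERα, was at 6.65 and 6.91 in Ishikawa cells and at 4.77 and 4.45 in HEC-1A cells in the same order, in the direction of the stated receptor status.

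Within each line 1 array stands on each side, so a difference has no replicate check and no p-value. It is set beside the SD of the differences of the 500 genes nearest in mean signal, which describes the spread between these arrays and is not a biological error. The 2 lines are the only replication, so limma was also fitted to all 4 arrays together, with the line as a block. Such a fit treats both lines as repeats of a single effect and leaves 1 residual degree of freedom.

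None of the 6 genes differed 2-fold between siEfp and siControl in either line, and the largest difference was that of HERC6 in HEC-1A cells. At least 2-fold higher were 0.136% of all genes for Ishikawa and 0.103% for HEC-1A, and at least 2-fold lower were 0.804% and 0.271%. Past 1.5-fold was HERC5 upward in Ishikawa cells, where 1.49% of all genes were past that fold upward and 3.72% downward. HERC6 was past it downward in HEC-1A cells, where 1.34% of all genes were past it upward and 2.04% downward. With limma 0 of the 6 passed an adjusted p of 0.05, where 0.163% of all genes did (0.00543% higher and 0.157% lower). At an unadjusted p under 0.05 limma counted 1 of them, HERC5, where 12.0% of all genes did. With siEfp 5 of the 6 had a higher signal in Ishikawa cells (52.2% of all genes did) and 4 of the 6 in HEC-1A cells (52.1%). The median of the 6 differences was 0.24 for Ishikawa and 0.11 for HEC-1A, against 0.01 over all genes for each line. ISG15, HERC5 and USP18 were higher with siEfp in both lines, a pattern that 31.1% of all genes showed. None was lower in both (26.7% of all genes), and the other 3 had opposite signs in the lines (41.8% of all genes). These counts by sign depend on the normalization for HERC6. With arrays quantile normalized again its Ishikawa difference turned slightly negative, and HERC6 was then lower in both lines.

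**Figure D1:**
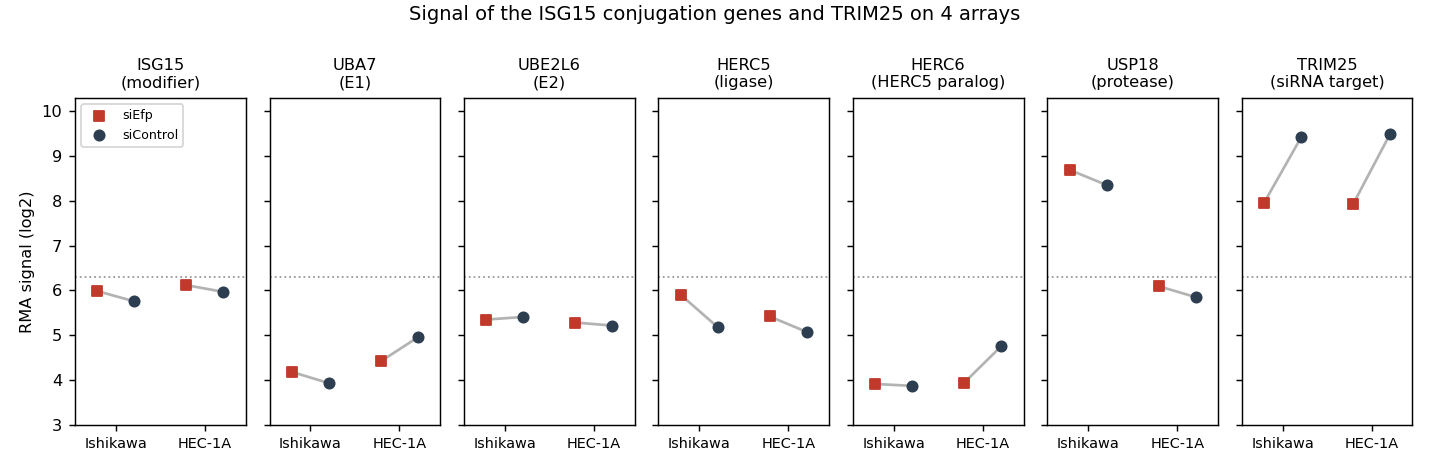
The y axis gives the log2 RMA signal of the 6 ISG15 conjugation genes and of TRIM25 on the 4 arrays. Red squares are siEfp arrays, dark circles siControl arrays, grey lines join the arrays of a line and the dotted line is the mean of the array medians over genes. TRIM25 is lower with siEfp in both lines, USP18 is above the dotted line in Ishikawa cells alone, and the other 5 genes lie below the dotted line throughout.

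ISG15, the modifier (probe set 7896817), had nearly the same signal on all 4 arrays. It was at 5.99 with siEfp and 5.75 with siControl in Ishikawa cells, and at 6.12 with siEfp and 5.97 with siControl in HEC-1A cells. The siEfp array was the higher of the pair in both lines, by 0.23 and 0.15 on the log2 scale, and both differences were smaller than the SD of genes of like signal (0.31 and 0.26). Over both lines limma gave 0.19 ± 0.12 (SE, adjusted p = 0.606). The whole span of ISG15 over the arrays was 0.36, and its signals were above those of 42.5% to 48.2% of genes.

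HERC5, which transfers ISG15 to newly made proteins at the ribosome, had the largest siEfp difference of the 6 genes in Ishikawa cells. Its signal (probe set 8096361) was 5.90 with siEfp and 5.18 with siControl in Ishikawa cells. In HEC-1A cells it was 5.42 with siEfp and 5.07 with siControl. Both siEfp arrays were thus above both siControl arrays. The log2 difference was 0.72 in Ishikawa cells, a ratio of 1.65, and 0.35 in HEC-1A cells, a ratio of 1.27. The SD of genes of like signal was 0.30 for Ishikawa and 0.24 for HEC-1A. Only 115 of 18417 genes (0.624%) were as far up in Ishikawa cells, and 7.17% were in HEC-1A cells. Over both lines limma gave 0.54 ± 0.14 (SE), with an unadjusted p of 0.0077 and an adjusted p of 0.224, so the difference did not pass the threshold.

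USP18, the ISG15 protease, had slightly higher signals on its own probe set with siEfp, short of the threshold. That probe set (8071155) was at 8.69 with siEfp and 8.35 with siControl in Ishikawa cells. In HEC-1A cells the signal was 6.09 with siEfp and 5.85 with siControl. The differences of 0.34 and 0.24 were each close to 1 SD of genes of like signal (0.32 and 0.24), and limma over both lines gave 0.29 ± 0.12 (SE, adjusted p = 0.418). A further probe set is listed for both USP18 and its near-identical copy USP41P, and it was not used for the gene. It read 9.70 with siEfp and 9.38 with siControl in Ishikawa cells, but 6.60 with siEfp and 6.68 with siControl in HEC-1A cells. The higher signal with siEfp was therefore not seen on that probe set in HEC-1A cells, and signal of the copy cannot be separated from that of USP18.

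UBE2L6, the conjugating enzyme (probe set 7948274), was the steadiest of the 6. Its signal was 5.35 with siEfp and 5.41 with siControl in Ishikawa cells, and 5.28 with siEfp and 5.22 with siControl in HEC-1A cells. All 4 values lay within 0.19 of each other, and limma gave 0.0046 ± 0.12 (SE, adjusted p = 0.995).

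UBA7 and HERC6 were dim, and their signals were lower with siEfp in HEC-1A cells but not in Ishikawa cells. UBA7, the enzyme that activates ISG15 (probe set 8087485), was at 4.18 with siEfp and 3.93 with siControl in Ishikawa cells. In HEC-1A cells it was at 4.42 with siEfp and 4.96 with siControl. The difference was 0.25 in Ishikawa cells, close to the SD of 0.24 of genes of like signal, and -0.54 in HEC-1A cells, where that SD was 0.23. HERC6 (probe set 8096335), which acts as the main ISG15 ligase in mice while HERC5 does so in humans, was at 3.91 with siEfp and 3.87 with siControl in Ishikawa cells. In HEC-1A cells it was at 3.94 with siEfp and 4.76 with siControl. The HEC-1A siControl array thus stood apart for HERC6, since the other 3 arrays lay between 3.87 and 3.94. In HEC-1A cells the HERC6 difference of -0.82 was a ratio of 1.76, and 112 of 18417 genes (0.608%) were as far down. As far down as UBA7 were 2.62% of genes. Over both lines limma gave -0.14 ± 0.20 (SE, adjusted p = 0.837) for UBA7 and -0.39 ± 0.21 (SE, adjusted p = 0.526) for HERC6. No signal of either gene was above more than 32.7% of genes on its array, a range in which RMA compresses differences.

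**Figure D2:**
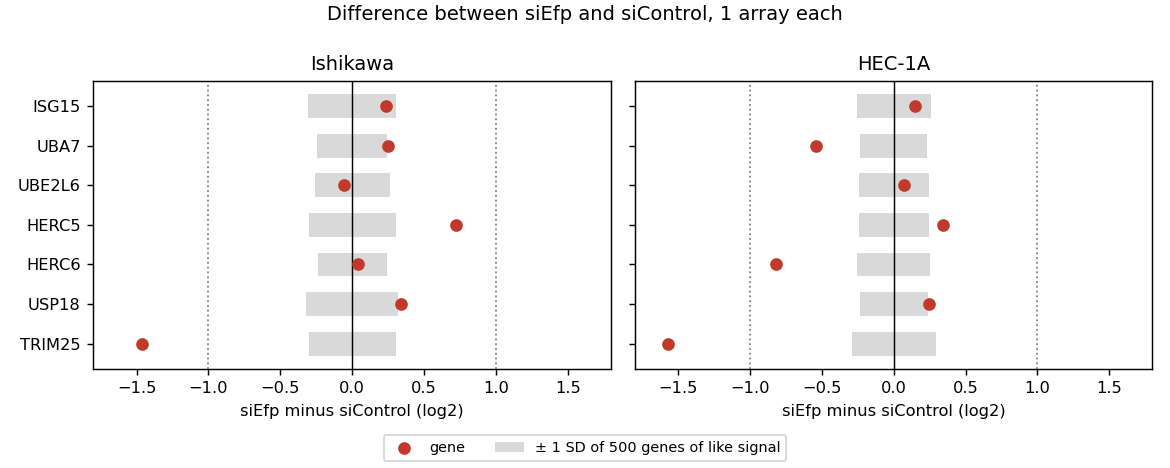
Log2 difference, siEfp minus siControl (x axis), of the 6 genes and TRIM25 in Ishikawa (left) and HEC-1A cells (right), 1 array on each side. Red points are the genes, grey bars are ± 1 SD of the differences of 500 genes of like signal and dotted lines mark a 2-fold difference. HERC5 lies to the right of its bar in both lines, at 0.72 and 0.35. USP18 lies just right of its bar in both lines, and UBA7 just right of its bar in Ishikawa cells. UBA7 and HERC6 lie left of theirs in HEC-1A cells, and only TRIM25 is beyond 2-fold.

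The lines differed far more in USP18 than in any other gene of the conjugation system. Both Ishikawa arrays (8.69 and 8.35) were above both HEC-1A arrays (6.09 and 5.85), a difference of 2.55 ± 0.12 on the log2 scale (limma, SE, adjusted p = 2.21e-05) or 5.86-fold. The arrays of a line differ in treatment, and the difference was 2.60 between the siEfp arrays and 2.50 between the siControl arrays. On the probe set shared with USP41P it was 2.90, without a test. Calls were common in this comparison, since 35.2% of all genes passed the same threshold (17.0% higher and 18.3% lower), but only 398 genes (2.16%) differed as much in either direction. USP18 was also the one member that reached the median signal of genes on any array, in Ishikawa cells only.

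UBA7 was the other member past the threshold between the lines, and it was lower in Ishikawa cells. Its means were 4.06 in Ishikawa and 4.69 in HEC-1A cells, a difference of -0.63 ± 0.20 (limma, SE, adjusted p = 0.0462). The call rests on the HEC-1A siControl array, and it is lost without treatment as a term (limma, adjusted p = 0.0708). Between the siEfp arrays the difference was -0.24, and between the siControl arrays it was -1.03. Of the rest, HERC6 had a difference of -0.46 ± 0.21 (limma, adjusted p = 0.142), which was -0.03 between the siEfp arrays and -0.89 between the siControl arrays. HERC5 had 0.29 ± 0.14 (limma, adjusted p = 0.165), ISG15 -0.17 ± 0.12 (limma, adjusted p = 0.340) and UBE2L6 0.13 ± 0.12 (limma, adjusted p = 0.491). The modifier, its E2 and its ligases therefore had no difference between the lines that passed the test, while the protease did. At an unadjusted p under 0.05 limma counted 2 of the 6, USP18 and UBA7, where 43.5% of all genes passed. Both Ishikawa arrays were above both HEC-1A arrays for USP18 and UBE2L6 (30.1% of all genes) and below both for UBA7 and HERC6 (32.6%).

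Likeness of profile over the 4 arrays was taken as the Euclidean distance of the centred log2 signals. Only the 10247 genes at or above the median of genes on at least 1 array were searched. Of these, 3 genes were closest to USP18. They were PCDHB11, a protocadherin, at a distance of 0.11, PYGO1, a cofactor of Wnt signaling, at 0.15 and ATP2B4, a plasma membrane calcium pump, at 0.15. UBA7 was itself below that median on all arrays. The nearest to UBA7 among the searched genes were GATD1-DT at 0.07, the potassium channel gene KCNC4 at 0.11 and SLC2A4RG at 0.11. The likeness is a description over 4 arrays from 2 lines. The other 4 members spanned less than 1 on the log2 scale, and no profiles were sought for them.

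More of the other interferon-stimulated genes had a lower than a higher signal in Ishikawa cells, unlike USP18. Of 49 measured genes in a list of them, 15 had a higher and 34 a lower signal in Ishikawa than in HEC-1A cells. By limma 6 passed as higher and 17 as lower, where 17.0% of all genes passed as higher and 18.3% as lower. The median difference was -0.19 against -0.01 over all genes. The differences ran from -3.89 for PARP14 to 1.54 for LAMP3, so USP18 lay above every one of the 49. IFITM1, a membrane protein that restricts viral entry, differed by -3.82 and OAS3, an antiviral oligoadenylate synthetase, by -2.96. IFIT1, an RNA-binding effector, was among the few higher in Ishikawa cells (1.33). Of the epithelial markers 5 of 6 passed as higher in Ishikawa cells and 0 as lower, beside the same 17.0% and 18.3% of all genes. The lines thus differ widely, and the part of cell identity in the USP18 difference was not tested. The log2 of the summed signal of the immune markers was 7.94 and 7.90 in Ishikawa and 8.39 and 8.26 in HEC-1A cells (siEfp and siControl). Of these 9 markers only CD68 passed between the lines, lower in Ishikawa cells (-1.34, limma, adjusted p = 0.0018).

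**Figure D3:**
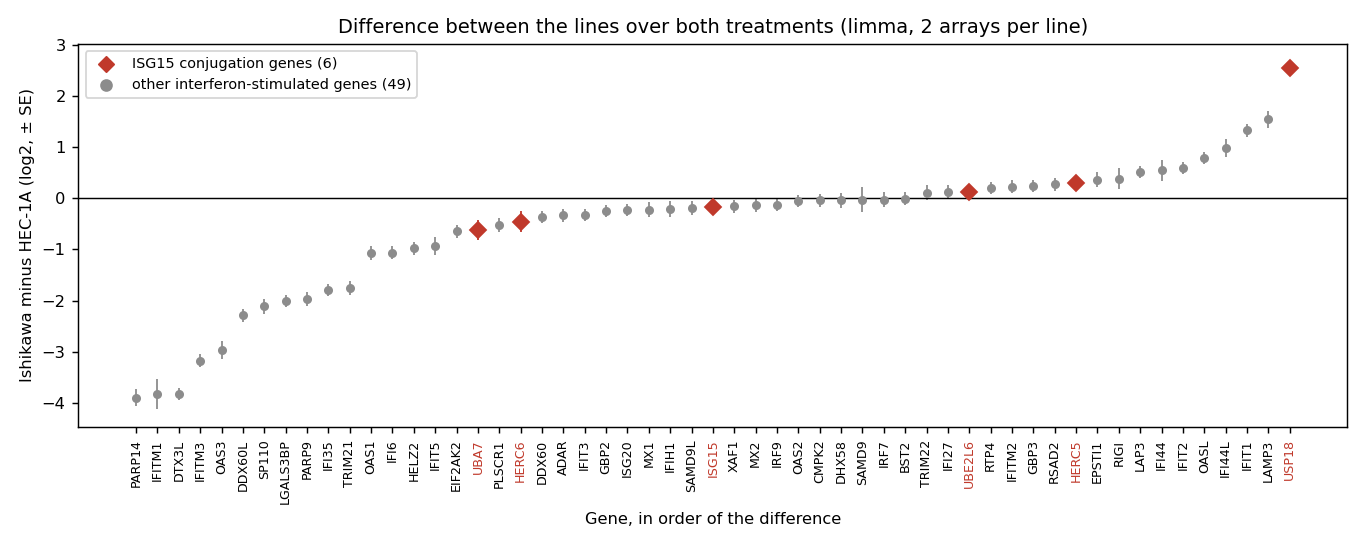
Difference between the lines, Ishikawa minus HEC-1A (y axis, log2, points with SE from limma over 2 arrays per line), for the 6 ISG15 conjugation genes (red diamonds) and 49 other interferon-stimulated genes (grey circles), ordered by the difference. USP18 stands at the upper end at 2.55, and the other 5 lie between -0.63 and 0.29.

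Of 5 receptor, kinase and transcription factor genes upstream of ISG15, none passed the adjusted threshold with siEfp. Lower signals with siEfp were seen for 4 of them in Ishikawa cells (47.6% of all genes) and 3 in HEC-1A cells (47.7%). In both lines 3 were lower (26.7% of all genes) and 1, TYK2, was higher (31.1%). Their values are given here. IFNAR2, the receptor subunit to which USP18 binds, was at 5.62 with siEfp and 5.99 with siControl in Ishikawa cells, and at 5.86 with siEfp and 6.50 with siControl in HEC-1A cells. Its difference over both lines was -0.51 (limma, adjusted p = 0.215). IRF9, the DNA-binding part of ISGF3, differed by -0.31 in Ishikawa and -0.32 in HEC-1A cells (limma over both lines -0.31, adjusted p = 0.386). IFNAR1, the other receptor subunit, differed by -0.11 and -0.15 in the same order. The kinase gene TYK2 differed by 0.16 and 0.27, and JAK1 by -0.18 and 0.08. None of the 5 passed the adjusted threshold, and 2 of them, IFNAR2 and IRF9, had an unadjusted p under 0.05 (12.0% of all genes did).

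No interferon-stimulated gene of the list passed the test with siEfp, and the interferon genes themselves were dim. Of the 49 measured interferon-stimulated genes 20 were higher and 29 lower in Ishikawa cells (median -0.03), and 22 higher and 27 lower in HEC-1A cells (median -0.05). Over all genes 52.2% were higher and 47.6% lower in Ishikawa cells, and 52.1% and 47.7% in HEC-1A cells. By limma 0 passed the adjusted threshold and 5 had an unadjusted p under 0.05, where 12.0% of all genes did. With dim genes left out 2 of them passed, where 251 of 10247 genes did. TRIM21 was at -0.79 (limma, adjusted p = 0.0305, against 0.110 with all genes). DTX3L, a ubiquitin ligase, was at -0.84 (limma, adjusted p = 0.0192, against 0.0769 with all genes). That filter kept genes at or above the median of genes on at least 1 array. Both genes reached it in HEC-1A cells alone. TRIM21 was at 6.35 and 7.29 in HEC-1A cells but at 4.74 and 5.39 in Ishikawa cells (siEfp and siControl). DTX3L was at 7.11 and 7.94 in HEC-1A cells but at 3.27 and 4.13 in Ishikawa cells. SAMD9, an antiviral and growth-restraining factor, was the one at least 2-fold different, at -1.40 in Ishikawa cells, beside -0.34 in HEC-1A cells. IFIT5 was the furthest up in Ishikawa cells (0.59). In HEC-1A cells TRIM21, an antibody receptor and ubiquitin ligase, was the furthest down (-0.94) and IFITM1 the furthest up (0.59), while IFITM1 was at -0.82 in Ishikawa cells. HERC5 at 0.72 was above all 49 in Ishikawa cells, and in HEC-1A cells it was at 0.35, below the highest of them. Of 16 measured interferon genes 15 were below the median of genes on all arrays. IFNB1 was the furthest down in Ishikawa cells (-0.23) and IFNW1 the furthest up (0.36), and in HEC-1A cells these were IFNA21 (-0.22) and IFNE (0.31), the interferon of the reproductive tract epithelium.

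**Figure D4:**
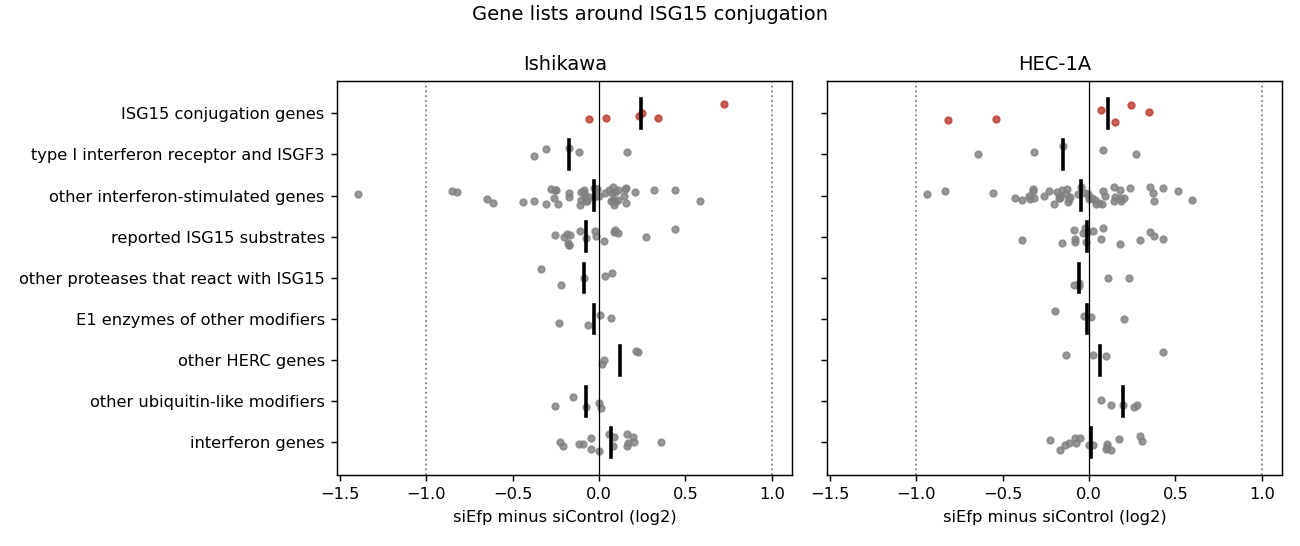
Log2 difference, siEfp minus siControl (x axis), of genes in 9 lists in Ishikawa (left) and HEC-1A cells (right), 1 array on each side. Points are genes, black bars are list medians, dotted lines mark a 2-fold difference and vertical scatter within a list carries no value. The median of the ISG15 conjugation genes is 0.24 for Ishikawa and 0.11 for HEC-1A, and those of the other interferon-stimulated genes are -0.03 and -0.05.

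Of the ISG15 ligases outside the HERC family, only the siRNA target passed the test. TRIM25 was lower by 1.46 on the log2 scale in Ishikawa and by 1.57 in HEC-1A cells (limma over both lines -1.52 ± 0.12, SE, adjusted p = 0.0342). Without the line as a block limma gave the same difference with an adjusted p of 1.0. ARIH1, a RING-between-RING ligase with reported activity for ISG15, was at 9.63 with siEfp and 9.66 with siControl in Ishikawa cells, and at 9.73 with siEfp and 9.58 with siControl in HEC-1A cells. Its difference over both lines was 0.06 (limma, adjusted p = 0.898).

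The proteases that also react with ISG15 were above the median of genes on all arrays, except USP2 in HEC-1A cells, and none passed the test with siEfp. USP2 differed by -0.34 in Ishikawa cells but -0.06 in HEC-1A cells, and USP13 by -0.22 and -0.06. USP5, a protease of free ubiquitin chains, was at -0.09 and 0.11. USP14, of the proteasome, was at 0.03 and -0.09, and USP16 at 0.07 and 0.23. Between the lines USP2 (0.82), USP5 (0.57) and USP16 (0.55) were higher in Ishikawa cells by limma (adjusted p = 0.0037, 0.0132 and 0.0143), the same direction as USP18 at a smaller size. Such calls were common, since 17.0% of all genes passed as higher and 18.3% as lower. Of all genes 16.3%, 25.8% and 26.7% differed as much as USP2, USP5 and USP16 in either direction. USP13 (0.39, adjusted p = 0.0524) and USP14 (-0.32, adjusted p = 0.0916) did not pass limma's threshold.

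No enzyme of the parallel pathways passed the test with siEfp. Of the activating enzymes of other modifiers 4 of 6 had a probe set of their own, and by limma 0 of them passed, while UBE2L3, the paralog of UBE2L6, was not analysed here. UBA1, the main ubiquitin-activating enzyme, differed by 0.01 in both lines, and UBA6, which activates ubiquitin and FAT10, by -0.23 in Ishikawa and -0.03 in HEC-1A cells. UBA3, of the NEDD8 pathway, was at 0.07 and -0.20, and ATG7, of autophagy, at -0.06 and 0.20. The other HERC genes had smaller differences than HERC5 in Ishikawa cells, but in HEC-1A cells HERC1 was further up than HERC5 (0.35). HERC1 was at 0.02 and 0.43, HERC2 at 0.03 in both lines, HERC3 at 0.21 and -0.13 and HERC4 at 0.23 and 0.10, with 0 of 4 passing limma's threshold. Between the lines HERC3 was higher in Ishikawa cells by 1.69 and HERC1 by 0.92, and HERC4 was lower (-0.76), all by limma (adjusted p = 2.07e-04, 0.0033 and 0.0037). In that comparison 17.0% of all genes passed as higher and 18.3% as lower. Of 9 listed ubiquitin-like modifiers 5 were measured, and 0 passed limma's threshold with siEfp. In Ishikawa cells 2 of the 5 were higher and 3 lower, and in HEC-1A cells all 5 were higher. URM1 was at -0.26 in Ishikawa cells but at 0.20 in HEC-1A cells, and UBD, the gene of the interferon-induced modifier FAT10, at 0.01 and 0.26 in the same order. FAU was at -0.15 and 0.07, SUMO3 at 0.0010 and 0.28 and UFM1 at -0.08 and 0.13.

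Genes of reported ISG15 substrates had differences in both directions, and none passed the test. Of 17 measured, 6 were higher and 11 lower with siEfp in Ishikawa cells (median -0.08), and 8 were higher and 9 lower in HEC-1A cells (median -0.01). Over all genes 47.6% were lower in Ishikawa and 47.7% in HEC-1A cells. RIGI, the RNA sensor that Efp modifies, was at 7.95 with siEfp and 7.51 with siControl in Ishikawa cells, but at 7.15 with siEfp and 7.54 with siControl in HEC-1A cells. It was the furthest up of the substrates in Ishikawa cells and the furthest down in HEC-1A cells (0.44 and -0.39). EIF4E2, a cap-binding protein, was the furthest down in Ishikawa cells (-0.25), and CHMP5, of the ESCRT-III membrane machinery, the furthest up in HEC-1A cells (0.43). By limma 0 of the 17 passed over both lines. These are mRNA signals, and neither free ISG15 protein nor its conjugates were measured on the arrays. Epithelial markers were lower with siEfp in both lines, 6 of 6 in each, against 26.7% of all genes lower in both, with medians of -0.28 and -0.27. By limma 0 passed the adjusted threshold and 3 had an unadjusted p under 0.05, where 12.0% of all genes did. The part of these markers in the differences above was not tested.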

How the data were processed

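Per the labels, the deposited values are log2 signals of probe sets that the authors obtained with RMA in Affymetrix Expression Console. RMA subtracts background, forces all arrays onto a common distribution and condenses the probes of a set. No version or genome build is stated. The methods name an exon array, whereas the probe set IDs match the annotation of the Human Gene 1.0 ST array. Such values hide a shift shared by all genes and compress differences of dim genes. The number of arrays limits the precision.

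Of 33297 probe sets, 19460 with 1 gene symbol were averaged to 18417 genes (1754 had several symbols and 12083 none). No dim gene was left out of the main comparisons. The search for like profiles took only genes at or above the median of genes on at least 1 array. Of these 19460, 19429 had a gene ID in RefSeq (GRCh38.p14). All value columns were mapped to samples by their labels.

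Within a line siControl was subtracted from siEfp, without a test. limma 3.58.1 in R 4.3.3 was fitted to all genes of the 4 arrays with treatment and cell line as terms, which pairs the arrays of a line, at a Benjamini-Hochberg adjusted p under 0.05, and was tested on simulated data. Its p-values measure only the spread between these arrays. Python 3.11.15, numpy 2.4.6, pandas 2.3.3 and matplotlib 3.10.9 were used. The members and lists come from general knowledge and were chosen with earlier results of these data known. Named are the 6 members, TRIM25, all measured ISG15 ligases and proteases, activating enzymes, HERC genes and receptor and ISGF3 genes listed, the 2-fold changed and furthest genes of the other lists and the 3 nearest profiles of members spanning at least 1 on the log2 scale. PARP14, LAMP3, OAS3, IFIT1, DTX3L, UFM1 and the markers were named after their values had been seen.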

Additional observations from a re-analysis of the deposited data

Results flagged for a closer look

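Of the 6 genes, 3 had differences of opposite sign in the lines, as 41.8% of all genes did, and with 1 array on each side none of these contrasts between lines was tested. UBA7 differed by 0.25 in Ishikawa and by -0.54 in HEC-1A cells (siEfp minus siControl, log2). HERC6 differed by 0.0426 in Ishikawa and by -0.82 in HEC-1A cells. The Ishikawa difference of HERC6 was well within the SD of genes of like signal (0.24). Its sign turned slightly negative with arrays quantile normalized again, so the opposite signs of HERC6 depend on the normalization. UBE2L6 differed by -0.0594 in Ishikawa and by 0.0686 in HEC-1A cells, both well within the SD of genes of like signal (0.26 and 0.24).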

How the results depend on the processing

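At a 1.5-fold threshold 274 genes were higher and 686 lower with siEfp in Ishikawa cells, and 246 higher and 375 lower in HEC-1A cells, against 25, 148, 19 and 50 at 2-fold. Over both lines limma called 1 gene higher and 29 lower. Those counts were 41 and 210 with dim genes left out (10247 genes tested), 30 and 152 with an intensity trend, 9 and 76 at an adjusted p under 0.1, and 0 and 0 without the block (252 genes at an unadjusted p under 0.05). With arrays quantile normalized again 3 genes were higher. For the 6 members and TRIM25, 118 of 120 alternative values stayed on the same side of the threshold with no called value turning its sign, or moved by less than the SD of like genes. The exceptions were lost without a block, TRIM25 with siEfp (limma, adjusted p = 1.0, range over alternatives 0.0042 to 1.0) and UBA7 between lines (limma, adjusted p = 0.0708, range 0.0251 to 0.0708). Among the other proteases USP13 passed between lines with dim genes left out (limma, adjusted p = 0.0292) and USP14 with an intensity trend (limma, adjusted p = 0.0199). DTX3L also passed for siEfp with an intensity trend (limma, adjusted p = 0.0487). USP18 between lines stayed at 2.54 to 2.55. Leaving out dim genes removes 5 of the 6 members, all but USP18. The comparison of lines within each treatment was added after seeing the data. Leaving out an array of a line and treatment leaves no residual degrees of freedom, so no test was run that way.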
